A study of Mus musculus with 15 samples.

Results

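Whole ovaries of untreated UM-HET3 mice were compared at 12 and 6 months of age. UM-HET3 mice descend from crosses among inbred strains and differ genetically from one another. The labels alone defined the comparison: all 5 untreated libraries of 12-month-old mice and all 5 untreated libraries of 6-month-old mice were taken, 10 of the 15 libraries in the series. The labels name no mutation or transgene in these mice, and neither group received a drug. The other 5 libraries, from 12-month-old mice given the glucose-lowering drug canagliflozin from 6 to 12 months of age, entered only an alternative estimate of the spread. Per the labels, each library was made from 1 ovary of 1 mouse, with poly(A) selection and a directional kit. Their extraction protocol names the 12-month groups only, and neither the cycle stage nor the time of day of collection is given in the sources used here. A difference between the ages cannot be told apart from a difference in any of these.

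The ovary holds a finite stock of oocytes, each enclosed in granulosa cells, and the stock shrinks with age as follicles are recruited or die. Theca cells around growing follicles make androgens, which granulosa cells turn into oestrogens, and after ovulation the follicle becomes a corpus luteum that makes progesterone. Between the follicles lie fibroblasts, extracellular matrix, vessels and immune cells, and the ageing ovary is known for a stiffer stroma and for immune cells that gather in it. In RNA from a whole organ, fewer cells of a type and less RNA per cell cannot be told apart.

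Levels are given in normalised reads, the reads assigned to a gene divided by 1 scaling factor per library. Of 24656 listed genes, 16932 reached 10 normalised reads in at least 5 of the 10 libraries and were tested. A difference was called where limma's moderated test on log2 (normalised reads + 1) gave a Benjamini-Hochberg adjusted p under 0.05 over all tested genes. Log2 differences are 12-month minus 6-month means on that scale, with the standard error, and folds are the same differences on the linear scale. Means carry the SD of 5 libraries, and values listed by library follow replicates 1 to 5. In all, 2652 genes (15.7%) were called, 1158 higher (6.84%) and 1494 lower (8.82%) at 12 months, and the median difference over the tested genes was 0.00. Most calls were small, since 175 genes rose and 141 fell by 2-fold or more. In 959 genes (5.66%) every 12-month library lay above every 6-month library, and in 1416 (8.36%) every one lay below. The counts given below for theca, TGF-beta and BMP, matricellular, matrix protease, endothelial, surface epithelial, macrophage, complement, DNA repair and nuclear respiratory genes lay near or below the 15.7% called over all genes.

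**Figure D1:**
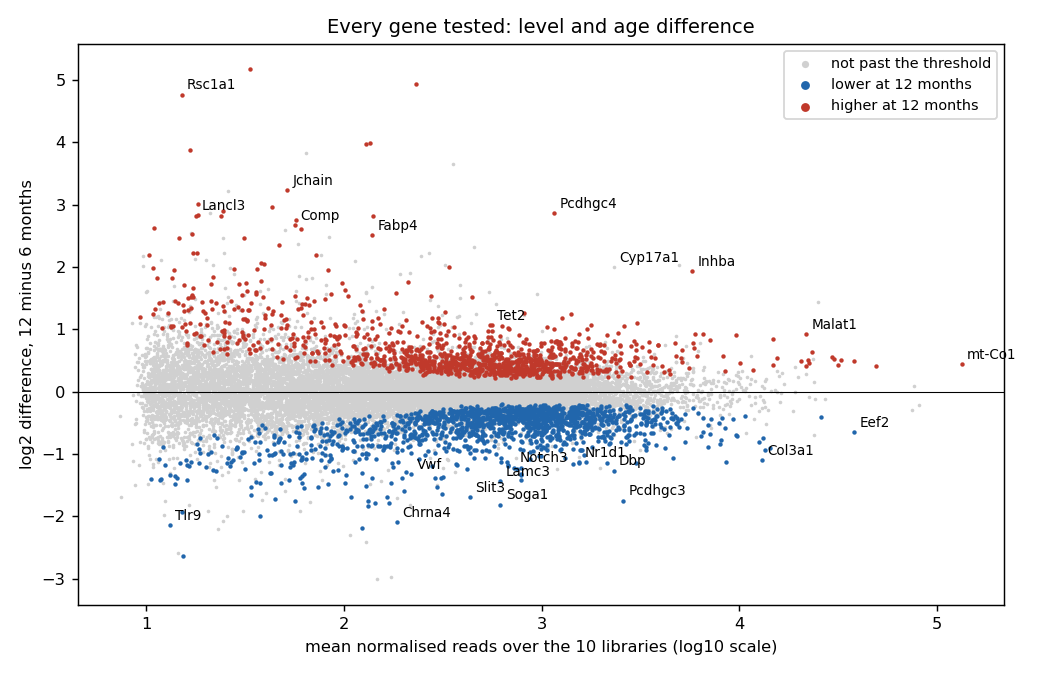
Each point is 1 of the 16932 tested genes, with its mean normalised reads over the 10 libraries on a log10 scale (horizontal) and its log2 difference between 12 and 6 months (vertical). The 1158 genes called higher are red and the 1494 called lower are blue, and the labelled abundant genes mt-Co1 and Eef2 differed by 0.44 and -0.65 log2 units.

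The libraries held 11.3 M to 13.6 M assigned reads (M, 1e+06), 12.2 ± 0.720 M at 12 months and 12.5 ± 0.729 M at 6 months (exact two-sided permutation p = 0.587). These totals are those recovered from the deposited values, while the labels' protocols give a depth of about 20000 reads, and the recovered totals were used. Other library measures did separate the ages. The top 50 genes of a library took 12.5 ± 0.527% of its total at 12 months and 11.3 ± 0.220% at 6 months (exact two-sided permutation p = 0.00794). Genes at 10 or more normalised reads numbered 16935 to 17155 at 12 months and 16657 to 16891 at 6 months (exact two-sided permutation p = 0.00794). All 22 defining markers fixed for oocytes, granulosa, theca, luteal and surface epithelial cells were above 0 in all 10 libraries. The root mean square distance of a library from the mean of the other 4 of its age was 0.477 ± 0.0606 log2 units at 12 months and 0.432 ± 0.0436 at 6 months (exact two-sided permutation p = 0.230). Distances within an age share libraries, so this p is approximate. It was 0.0397 without 12-month replicate 1 or without 12-month replicate 4. Leaving out a library takes the distances of its age from a mean of fewer libraries, which raises them. Those lower p values therefore cannot tell whether the older mice differed more among themselves. The most distant library, at 0.579, was 12-month replicate 3, in which 9 red blood cell genes summed to 18138 normalised reads, against 229 to 4333 in the other 12-month libraries and 803 to 2369 in the 6-month libraries. Without replicate 3 of either age, 846 genes were called higher and 1046 lower, and without 6-month replicate 2 the counts were 755 and 1060. Where leaving out replicate 3 of both ages ended a call that held with any 1 library left out, its adjusted p is given.

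Calls varied with the base composition and length of transcripts, which bears on many of the results. Among the quintile of genes with the lowest GC content in their transcripts (median 41.4%), 16.5% were called higher and 2.01% lower at 12 months, and in the quintile with the highest GC content (median 57.7%) 1.74% were called higher and 16.0% lower. Measured within each library, the median log2 deviation of the highest GC quintile minus that of the lowest was -0.252 to -0.0325 in the 12-month libraries and 0.0934 to 0.230 in the 6-month libraries. With these labels, age and any batch of the libraries cannot be told apart as the source of this trend. In the quintile of genes with the longest transcripts (median 6525 bases), 16.2% were called higher and 10.9% lower. In the quintile with the shortest (median 916 bases), 4.85% were called higher and 4.19% lower. The part of GC content and length in the results was not tested, but an added setting, chosen after the data were seen, removed the length and GC trend from each library. That setting called 1036 genes higher (6.21%) and 1286 lower (7.70%) of 16693 genes, of which 721 and 929 were called the same way without it. Where it ended a call described below, the adjusted p under that setting is given as the GC-corrected adjusted p. Length was removed together with GC content, so a lost call cannot be credited to GC content alone. For some mitochondrially encoded genes only the loss of the call is given.

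**Figure D2:**
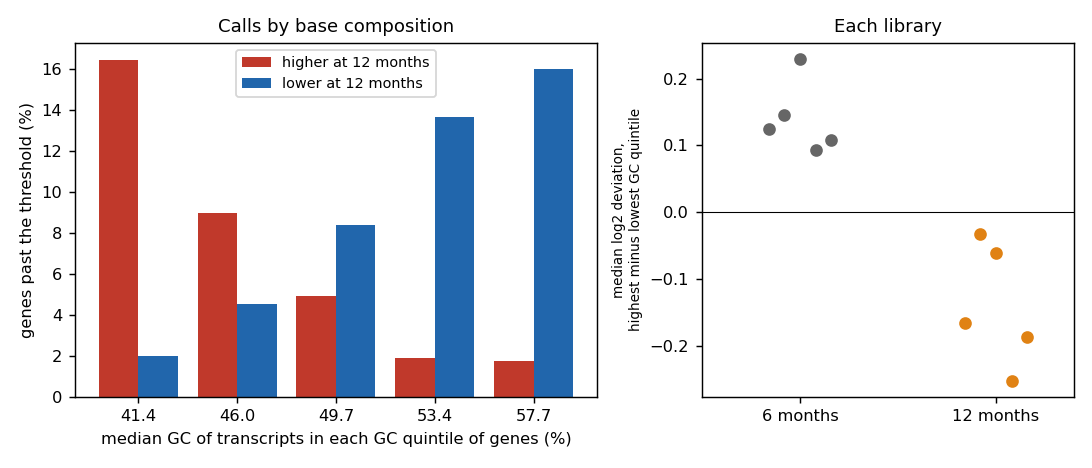
Left, percent of genes called higher (red) or lower (blue) at 12 months in each quintile of genes by the GC content of their transcripts, with the quintile's median GC content below the bars. Right, 1 point per library: the median log2 deviation of the highest minus the lowest GC quintile, below 0 in all 5 libraries of 12 months and above 0 in all 5 of 6 months.

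Few oocyte transcripts were called. Of 8 tested oocyte-secreted and zona genes none was called, at a median difference of 0.15, and 6 were positive. Gdf9, a growth factor by which the oocyte drives its granulosa cells, stood at 450.3, 554, 560.0, 800.4 and 751 normalised reads in the 6-month ovaries and 511, 736, 849, 484 and 597 in the 12-month ovaries. These ranges overlapped almost whole, and the difference was 0.03 ± 0.19 (adjusted p = 0.945). Bmp15, the partner of Gdf9, averaged 191 ± 42.9 at 6 months and 230.3 ± 44.4 at 12 months (adjusted p = 0.289), and the zona protein gene Zp3 321 ± 59.0 and 325 ± 69.4 (adjusted p = 0.972).

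Genes of the youngest follicles and of the egg's stored proteins also gave few calls. Nobox and Lhx8, transcription factors of the primordial follicle oocyte, differed by -0.37 ± 0.19 and -0.17 ± 0.28 (adjusted p = 0.208 and 0.716), while Figla was below the filter at 9.30 ± 2.37 and 5.86 ± 2.84 normalised reads. Of the 8 tested members of that list, Taf4b, a transcription cofactor needed for the oocyte stock, was called higher by 0.75 ± 0.21 (adjusted p = 0.0312). It kept its call, with 1 library left out, only without 12-month replicate 1, 12-month replicate 5, 6-month replicate 4 or 6-month replicate 5 (highest adjusted p = 0.0709). Of 17 maternal effect and storage genes, Dnmt1, the maintenance DNA methyltransferase that other cells express as well, was called lower (-0.30 ± 0.08, adjusted p = 0.0209, GC-corrected adjusted p = 0.166, and 0.0677 without replicate 3 of either age). Nlrp5, Padi6 and Ooep, parts of the subcortical complex of the egg, differed by -0.08, -0.22 and 0.28 (adjusted p = 0.787, 0.313 and 0.355).

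Granulosa cell genes rose in part. Of 20 tested, 6 were called higher and none lower, the median difference was 0.44, and 4 to 6 were called when 1 library was left out. Inhba, the beta A subunit shared by activin A and inhibin A, gave 3848, 2812, 2196, 1096 and 2641 normalised reads at 6 months and 10874, 7748, 11044, 8083 and 7466 at 12 months. Every 12-month ovary was above every 6-month ovary, and the rise was 3.82-fold (1.93 ± 0.29, adjusted p = 0.00205). Greb1, an oestrogen-responsive gene, went from 5168 ± 1152 to 9079 ± 1395 (1.78-fold, adjusted p = 0.00513).

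The nuclear receptor Nr5a2 rose 1.68-fold (adjusted p = 0.0126) and Gja1, the connexin of granulosa gap junctions, 1.46-fold (adjusted p = 0.0239), both without overlap between the ages. The oestrogen receptor Esr2 was also called higher (0.79 ± 0.21, adjusted p = 0.0252) and lost its call without 12-month replicate 2, 12-month replicate 3, 12-month replicate 5, 6-month replicate 1 or 6-month replicate 2 (highest adjusted p = 0.0574). Slc18a2, a vesicular amine transporter, was called at an adjusted p of 0.0451 and kept its call, with 1 library left out, only without 12-month replicate 1, 6-month replicate 4 or 6-month replicate 5 (highest adjusted p = 0.101). The other hormone genes of this cell gave Amh 1880 ± 449.8 and 1808 ± 721, Fshr 265 ± 95.0 and 369.8 ± 99.7, and Inha 18116 ± 4164 and 21491 ± 6327 at 6 and 12 months (adjusted p = 0.800, 0.176 and 0.534). The inhibin alpha and beta B subunits, Inha and Inhbb, were not called, with differences of 0.23 ± 0.23 and 0.28 ± 0.46.

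Genes of steroid-making cells differed in how much they varied from mouse to mouse. Cyp17a1, the androgen-making enzyme of theca cells, stood at 2697, 102, 119, 1739 and 2255 normalised reads in the 6-month ovaries and 2442, 7729, 2049.6, 2942 and 1169.7 in the 12-month ovaries. Replicates 2 and 3 of 6 months were lowest and replicate 2 of 12 months highest, and the difference of 2.00 ± 1.04 was not called (adjusted p = 0.223). Insl3 and Cyp11a1 differed by 0.06 ± 0.47 and 0.09 ± 0.20 (adjusted p = 0.946 and 0.804). Hsd3b1 varied less, at -0.21 ± 0.12 (adjusted p = 0.264), and Dlk1 varied more, at -1.77 ± 0.93 (adjusted p = 0.226). Of 14 theca and interstitial genes 2 were called, both lower. Por, the reductase that passes electrons to microsomal cytochrome P450 enzymes, fell 1.64-fold without overlap (adjusted p = 0.0140). Srd5a1, the 5-alpha reductase, was called at -0.88 ± 0.26 (adjusted p = 0.0414, GC-corrected adjusted p = 0.0694) and kept its call, with 1 library left out, only without 12-month replicate 2 or 6-month replicate 4 (highest adjusted p = 0.0871).

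Several luteal genes spread widely from mouse to mouse. Akr1c18, the enzyme that breaks down progesterone as a corpus luteum regresses, gave 14490.3, 9287, 3314, 20916 and 11128 normalised reads at 6 months and 40022, 14582, 553, 19089 and 18473 at 12 months. Both the highest and the lowest ovary were 12 months old, and the difference was 0.03 ± 1.06 (adjusted p = 0.992). Of 14 tested luteal genes, 2 were called higher and 1 lower at a median of 0.56. The prolactin receptor Prlr rose 1.71-fold (adjusted p = 0.0184, GC-corrected adjusted p = 0.0982, and 0.0759 without replicate 3 of either age) and Fndc3b, a membrane protein gene, 1.56-fold (adjusted p = 0.00987). Parm1 was called lower (-0.94 ± 0.23, adjusted p = 0.0198) and lost its call without 6-month replicate 2 (highest adjusted p = 0.0507). Ptgfr, the receptor for luteolytic prostaglandin, averaged 4845 ± 2544 and 7847 ± 3643 (adjusted p = 0.300).

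Ovulation genes gave 1 call among 13 tested, the prostaglandin receptor Ptger2, lower by -0.49 ± 0.14 (adjusted p = 0.0356). It kept its call, with 1 library left out, only without 12-month replicate 2, 12-month replicate 5 or 6-month replicate 1 (highest adjusted p = 0.0852). The progesterone receptor Pgr stood at 3.90 to 19.0 and 15.6 to 31.0 normalised reads in the libraries of the ages (adjusted p = 0.103), and Ptgs2 and Has2, which a follicle switches on before it ovulates, were below the filter at means of 3.55 and 10.9 and of 3.56 and 5.40.

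**Figure D3:**
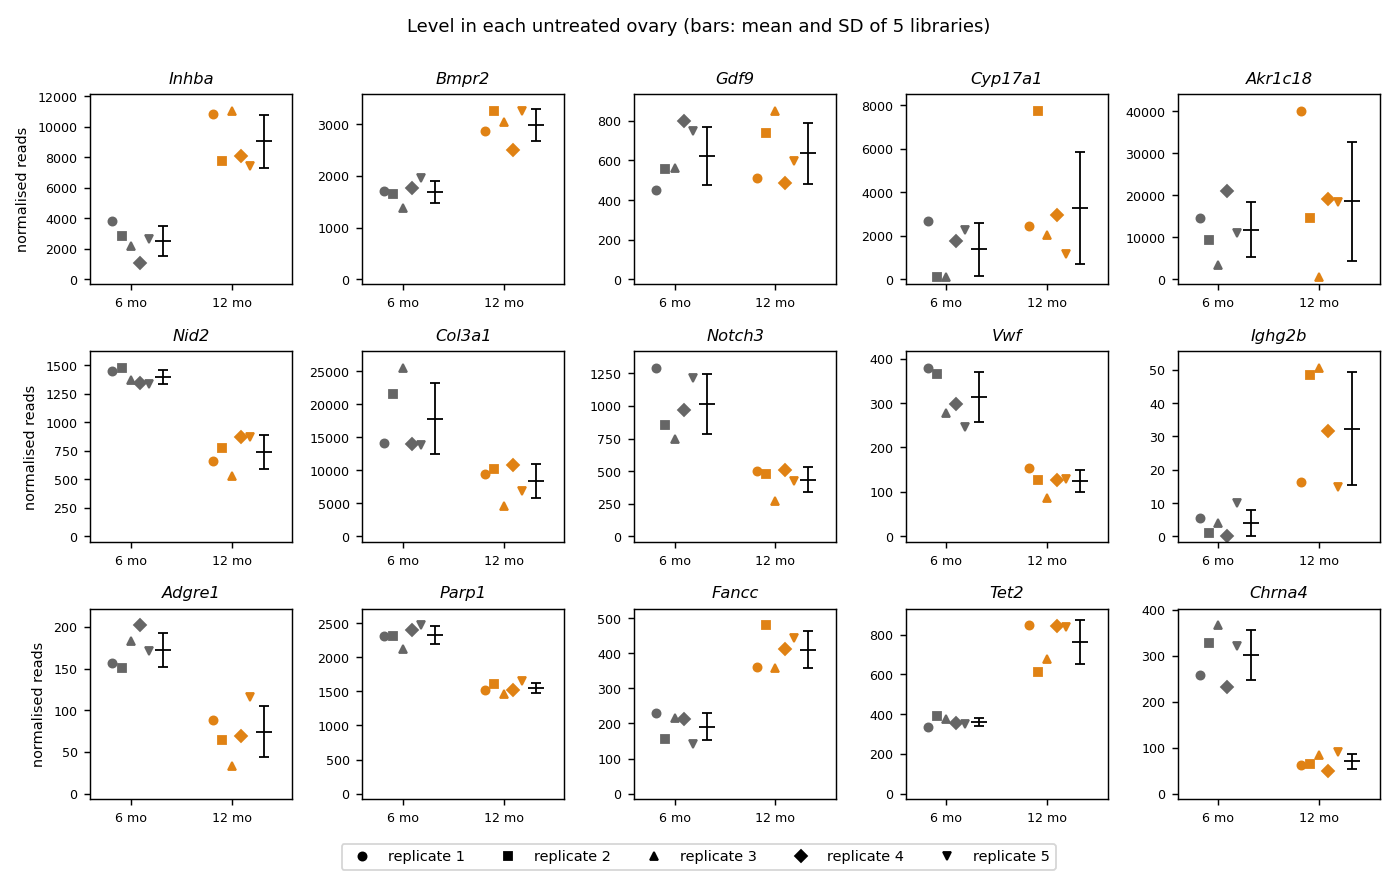
Normalised reads of 15 genes in each untreated ovary, 6 months in grey and 12 months in orange, with 1 marker shape per replicate number and the mean and SD of 5 libraries as black bars; each vertical axis starts at about 0. Inhba, Bmpr2, Ighg2b, Fancc and Tet2 were higher in every 12-month ovary, Nid2, Col3a1, Notch3, Vwf, Adgre1, Parp1 and Chrna4 were lower in every one, and Gdf9, Cyp17a1 and Akr1c18 overlapped. For Ighg2b the filter fixed the lack of overlap in advance.

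Receptors for ovarian hormones and growth factors rose more often than they fell. Of 21 tested, 7 were called higher and 2 lower, at a median of 0.50, and 5 and 0 without replicate 3 of either age. Bmpr2, the type II receptor for bone morphogenetic proteins and for GDF9, gave 1713, 1655, 1378, 1759 and 1953 normalised reads at 6 months and 2866, 3243, 3041, 2502 and 3253 at 12 months. The ages did not overlap and the rise was 1.76-fold (0.82 ± 0.11, adjusted p = 0.00106). Bmpr1b, a type I receptor of the same family, rose 2.10-fold, from 355 ± 72.4 to 741 ± 103 (adjusted p = 0.00155).

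The insulin receptor Insr rose 1.64-fold (adjusted p = 0.00115) and the insulin-like growth factor receptor Igf1r 1.42-fold (adjusted p = 0.0118). Esr1, the other oestrogen receptor, differed by -0.19 ± 0.12 (adjusted p = 0.304). The receptors called lower were Tgfbr3, the coreceptor betaglycan that binds TGF-beta and inhibin (-0.49 ± 0.12, adjusted p = 0.0209, and 0.0761 without replicate 3 of either age), and Igf2r, which clears IGF2 (-0.44 ± 0.12, adjusted p = 0.0285). Igf2r lost its call without 12-month replicate 2, 6-month replicate 1, 6-month replicate 2 or 6-month replicate 3 (highest adjusted p = 0.0636). The ligands Igf1 and Igf2 were not called, at 0.35 ± 0.15 and -0.15 ± 0.30 (adjusted p = 0.126 and 0.779). Of the 15 tested genes of the insulin-like growth factor system 3 were called higher and 1 lower; the third rise, Pappa, a protease that frees the factors from a binding protein, had an adjusted p of 0.0498 (GC-corrected adjusted p = 0.0722) and kept its call, with 1 library left out, only without 12-month replicate 2 or 6-month replicate 5 (highest adjusted p = 0.113).

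Hedgehog signals pass from granulosa to theca cells, and some genes of the pathway fell. Of 13 tested members, 4 were called lower and none higher (median -0.31), 4 or 5 when any 1 library was left out. After the length and GC correction 4 were called lower, and the median was -0.11. Sufu, which restrains the GLI factors, gave 991, 974, 879.5, 1077 and 1291 normalised reads at 6 months and 599.6, 592, 665, 646 and 689 at 12 months. No value of one age lay within the range of the other, and the fall was 1.62-fold (-0.70 ± 0.10, adjusted p = 0.00150). The coreceptor Boc fell 1.62-fold (adjusted p = 0.0100) and the coreceptor Gas1 1.53-fold (adjusted p = 0.0111, GC-corrected adjusted p = 0.0589). Ptch1 was not called, at -0.34 ± 0.12 (adjusted p = 0.0760). The ligands Ihh and Dhh, made in granulosa cells, averaged 603 ± 305 and 632 ± 184, and 315 ± 90.6 and 305 ± 84.8 (adjusted p = 0.759 and 0.953).

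Wnt pathway genes gave 9 calls among 37 tested, 8 lower and 1 higher (median -0.16), but only 5 were lower without 6-month replicate 2 or without 6-month replicate 3, and 4 after the length and GC correction. The coreceptor Lrp5 held 1773, 1575, 1648, 1644 and 1827 normalised reads at 6 months and 914, 1103, 709, 965 and 1112 at 12 months. The ages were apart and the fall was 1.78-fold (-0.83 ± 0.12, adjusted p = 0.00129). Axin2, a target and brake of the pathway, fell 2.08-fold (adjusted p = 0.00855), the receptor Fzd2 1.57-fold (adjusted p = 0.00526) and Znrf3, which removes Wnt receptors from the membrane, 1.33-fold (adjusted p = 0.00544, and 0.0845 in the fit over 15 libraries).

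The receptor Fzd3 was the only Wnt gene called higher (0.48 ± 0.12, adjusted p = 0.0172, GC-corrected adjusted p = 0.234). The ligands Wnt4 and Wnt2b differed by 0.03 ± 0.33 and 0.02 ± 0.42 (adjusted p = 0.962 and 0.984). In the TGF-beta and BMP pathway 2 of 39 tested genes were called in each direction. Tgfb3 fell 1.64-fold without overlap, from 1137 ± 117 to 695 ± 97.4 (adjusted p = 0.00156), while Tgfb1 and Tgfb2 differed by -0.07 ± 0.24 and -0.30 ± 0.14 (adjusted p = 0.876 and 0.171). The others called were Inhba, Ltbp3, which holds the ligand in the matrix (-0.34 ± 0.09, adjusted p = 0.0254, GC-corrected adjusted p = 0.137), and the ligand Bmp3 (0.89 ± 0.25, adjusted p = 0.0374, GC-corrected adjusted p = 0.0686). Ltbp3 lost its call without 12-month replicate 2, 6-month replicate 1, 6-month replicate 2 or 6-month replicate 4 (highest adjusted p = 0.0607) and Bmp3 kept its call, with 1 library left out, only without 12-month replicate 1 or 6-month replicate 5 (highest adjusted p = 0.0787).

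Many extracellular matrix genes fell in the 12-month ovary, among them those of basement membranes, the sheets around follicles and vessels. Of 23 tested basement membrane genes 11 were called lower and none higher (median -0.52), 10 to 12 when any 1 library was left out and 10 after the length and GC correction. Nid2, a linker between laminin and collagen IV, gave 1448, 1475, 1373, 1348 and 1340.4 normalised reads at 6 months and 665, 776, 528, 869.6 and 874 at 12 months. The highest 12-month ovary was below the lowest 6-month ovary, and the fall was 1.91-fold (-0.93 ± 0.13, adjusted p = 0.00121).

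Lamc3, a laminin gamma chain, fell 2.70-fold from 914 ± 365 to 320.4 ± 46.9 (adjusted p = 0.00333), and perlecan, Hspg2, 1.79-fold (adjusted p = 0.00123). The laminin beta chain Lamb2 fell 1.44-fold (adjusted p = 0.00501) and Col4a1, 1 of the pair of chains of the common collagen IV, 1.61-fold (adjusted p = 0.0155). Col4a3, a chain of another collagen IV network, averaged 89.9 ± 36.1 and 128 ± 32.3 (adjusted p = 0.192).

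The fibrillar collagens, which form tissue fibres, had 5 of 10 tested genes called lower and none higher (median -0.62), but 3 without 6-month replicate 3. Col3a1 stood at 14196, 21482, 25442, 13944 and 13809.5 normalised reads in the 6-month ovaries and 9447, 10223, 4569, 10871 and 6869 in the 12-month ovaries. Replicate 3 was the highest of the younger and the lowest of the older ovaries, the ages did not overlap, and the fall was 2.14-fold (-1.10 ± 0.26, adjusted p = 0.0167). The other calls were Col1a2, Col5a2 and Col5a1 (differences of -0.81, -0.86 and -0.73), of which Col5a1 lost its call without 6-month replicate 3 (highest adjusted p = 0.0547). Without replicate 3 of either age 4 fibrillar genes were called lower. Col1a1 fell 1.71-fold (adjusted p = 0.0339, GC-corrected adjusted p = 0.0711) and lost its call without 12-month replicate 1, 12-month replicate 5, 6-month replicate 1, 6-month replicate 2 or 6-month replicate 3 (highest adjusted p = 0.0793). Among 20 other collagens 3 were called lower: Col22a1, a collagen of tissue junctions, 3.37-fold from 89.5 ± 43.9 to 23.0 ± 2.62 (adjusted p = 0.00562), Col16a1 (adjusted p = 0.0223, GC-corrected adjusted p = 0.0694) and Col6a1 (adjusted p = 0.0416, GC-corrected adjusted p = 0.208). Col16a1 lost its call without 6-month replicate 2 or 6-month replicate 3 (highest adjusted p = 0.0566), and Col6a1 kept its call, with 1 library left out, only without 12-month replicate 2, 12-month replicate 4 or 6-month replicate 3 (highest adjusted p = 0.0930).

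Matrix genes outside the collagens were called in both directions. Of 13 elastic fibre genes 5 were called lower, and 2 without 6-month replicate 2 or 4. Emilin2, an elastic fibre glycoprotein, fell 1.91-fold (adjusted p = 0.00127). The fibrillin Fbn1 was called at -0.56 ± 0.16 (adjusted p = 0.0340) and kept its call, with 1 library left out, only without 12-month replicate 3, 12-month replicate 4, 12-month replicate 5 or 6-month replicate 5 (highest adjusted p = 0.0715), and Fbn2 differed by 0.21 ± 0.24 (adjusted p = 0.586). Elastin itself, Eln, was among the calls with Fbln2 and Emilin1 (adjusted p = 0.0267 and 0.0301, GC-corrected adjusted p = 0.0864 and 0.0864). Fbln2 lost its call without 12-month replicate 3, 12-month replicate 5, 6-month replicate 2 or 6-month replicate 4 (highest adjusted p = 0.0589), and Emilin1 lost its call without 6-month replicate 2, 6-month replicate 3 or 6-month replicate 4 (highest adjusted p = 0.0740). Of 21 enzymes that process and crosslink collagen 4 were called lower and 0 after the length and GC correction; 1 was called without each of 6-month replicates 2, 3 and 4. They were P3h1 (adjusted p = 0.0226, GC-corrected adjusted p = 0.252, and 0.0687 without replicate 3 of either age), Loxl1 (0.0364 and 0.116), Adamts14 (0.0348 and 0.0698) and Adamts2 (0.0417 and 0.136). Loxl1 kept its call, with 1 library left out, only without 12-month replicate 2, 12-month replicate 3, 12-month replicate 4 or 6-month replicate 1 (highest adjusted p = 0.0838), Adamts14 kept its call, with 1 library left out, only without 12-month replicate 1, 12-month replicate 4, 12-month replicate 5 or 6-month replicate 5 (highest adjusted p = 0.0741), and Adamts2 kept its call, with 1 library left out, only without 12-month replicate 5 (highest adjusted p = 0.0979). The crosslinking oxidases Lox and Loxl2 differed by -0.08 ± 0.22 and -0.58 ± 0.35 (adjusted p = 0.841 and 0.295).

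Among 29 matricellular proteins and proteoglycans the small proteoglycans Bgn and Prelp were called lower, 1.75-fold (adjusted p = 0.0107) and 1.93-fold (adjusted p = 0.00805). Vcan, the large proteoglycan of expanding follicles, was called higher (0.82 ± 0.24, adjusted p = 0.0407, GC-corrected adjusted p = 0.121) and kept its call, with 1 library left out, only without 12-month replicate 3 or 12-month replicate 5 (highest adjusted p = 0.0873). Sparc and Thbs1, which tune how cells hold to the matrix, differed by -0.08 ± 0.11 and 0.01 ± 0.16 (adjusted p = 0.656 and 0.985). Of 32 matrix proteases and inhibitors 2 were called higher and 3 lower, and the falls of the membrane-bound protease Mmp17 (1.71-fold, adjusted p = 0.00386) and of Mmp28 (1.99-fold, adjusted p = 0.0120) kept their calls with any 1 library left out. The third fall was Mmp11 (adjusted p = 0.0254, GC-corrected adjusted p = 0.0774), which lost its call without 12-month replicate 2, 12-month replicate 5, 6-month replicate 1, 6-month replicate 2 or 6-month replicate 3 (highest adjusted p = 0.0655). The rises were Adamts5 (1.28 ± 0.33, adjusted p = 0.0256, GC-corrected adjusted p = 0.0530) and Adamts6 (1.05 ± 0.28, adjusted p = 0.0287, GC-corrected adjusted p = 0.0681); Adamts5 lost its call without 12-month replicate 4, 6-month replicate 1 or 6-month replicate 2 (highest adjusted p = 0.0635), and Adamts6 lost its call without 12-month replicate 2, 12-month replicate 3 or 6-month replicate 2 (highest adjusted p = 0.0650). The gelatinase Mmp2 was not called, at 3341 ± 1266 and 1675 ± 683 (adjusted p = 0.0705).

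Some markers of vessel wall cells fell as well. Of 17 smooth muscle and pericyte markers, 6 were called lower and none higher (median -0.46), 6 to 8 when any 1 library was left out and 6 after the length and GC correction. Notch3, the receptor that marks mural cells, gave 1289, 858, 745, 967 and 1212 normalised reads at 6 months and 500.3, 477, 269.9, 509 and 425 at 12 months. All 5 older ovaries were below all 5 younger ones, and the fall was 2.33-fold (-1.22 ± 0.20, adjusted p = 0.00280). Cspg4, the pericyte proteoglycan NG2, fell 2.27-fold (adjusted p = 0.00127), and the contractile genes Smtn 1.63-fold (adjusted p = 0.00106), Lmod1 1.88-fold (adjusted p = 0.00369) and Myh11 1.76-fold (adjusted p = 0.0109). Acta2 and Tagln, also contractile genes, were not called, at -0.46 ± 0.20 and -0.38 ± 0.17 (adjusted p = 0.133 and 0.158).

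Of 18 endothelial markers 3 were called lower and none higher, where 8.82% of all tested genes were called lower, and the median was -0.06. Vwf, the clotting factor stored in endothelial cells, stood at 378, 365, 279, 297 and 247 normalised reads in the 6-month ovaries and 155, 126, 86.3, 127 and 129 in the 12-month ovaries. The older ovaries were lower in every case, by 2.51-fold (-1.33 ± 0.17, adjusted p = 0.00104). VE-cadherin, Cdh5, fell 1.37-fold (adjusted p = 0.00634), and Tie1 was called (adjusted p = 0.0221, GC-corrected adjusted p = 0.235) and lost its call without 6-month replicate 2 (highest adjusted p = 0.0524). Pecam1 and Tek, carried by all endothelium, differed by -0.01 ± 0.11 and 0.04 ± 0.16 (adjusted p = 0.973 and 0.887).

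Among 15 markers of the surface epithelium, Muc16, a membrane mucin, rose 2.07-fold without overlap (adjusted p = 0.00693). The retinoic acid-making enzyme Aldh1a2 was called lower (-1.06 ± 0.29, adjusted p = 0.0333) and kept its call, with 1 library left out, only without 12-month replicate 2, 6-month replicate 1 or 6-month replicate 5 (highest adjusted p = 0.0785). The keratins Krt7, Krt8 and Krt18 differed by -0.62, 0.21 and -0.41 (adjusted p = 0.250, 0.377 and 0.230). Marker genes of the oviduct, which joins the ovary, summed to 192 to 342 normalised reads in the 6-month and 281 to 571 in the 12-month libraries, and Ovgp1, its secreted glycoprotein, to 27.5 to 103 and 47.5 to 211. Of the 4 oviduct markers tested, Ccdc39, a gene of cilia, was called higher (0.70 ± 0.21, adjusted p = 0.0405, GC-corrected adjusted p = 0.0796) without overlap and kept its call, with 1 library left out, only without 12-month replicate 1 or 12-month replicate 2 (highest adjusted p = 0.0902), and 3 differences were positive (median 0.53). Their part in any result was not tested.

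**Figure D4:**
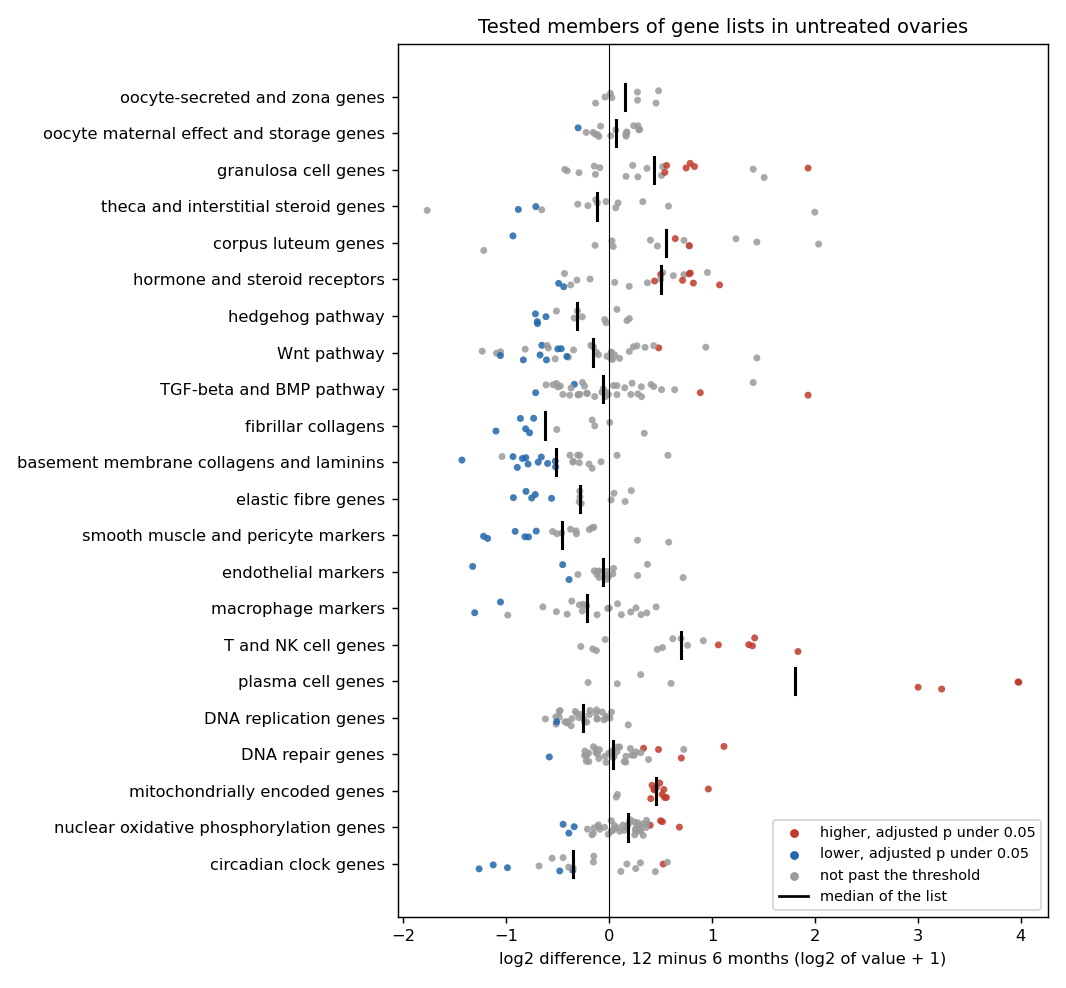
Each point is 1 tested gene of the list named at the left, placed by its log2 difference between 12 and 6 months; red and blue mark calls in either direction, grey marks genes not called, and the black bar is the list's median. Basement membrane genes sit left of 0 with 11 of 23 called, and plasma cell genes reach furthest to the right.

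Antibody transcripts were higher in every older ovary. Immunoglobulin genes and Jchain together took 0.00804 ± 0.00323% of the reads at 12 months and 0.00137 ± 0.000189% at 6 months (exact two-sided permutation p = 0.00794, the smallest that 5 against 5 allows). These genes were already known from earlier results to differ, so the p describes that difference and is no independent support. Of 8 tested plasma cell genes 4 were called higher, and 4 to 6 were when any 1 library was left out. Ighg2b, the constant region of IgG2b, gave 5.69, 0.908, 3.90, 0 and 9.91 normalised reads at 6 months and 16.2, 48.5, 50.5, 31.8 and 14.8 at 12 months. The rise was 8.03-fold (3.00 ± 0.63, adjusted p = 0.00934). No younger ovary reached 10, so Ighg2b could pass the filter only with all 5 older ovaries at 10 or more. The lack of overlap was therefore fixed by the filter and is no support for the rise. Xbp1, a factor of secretory cells in general, averaged 1679 ± 223 and 2083 ± 326 (adjusted p = 0.117), and the B cell gene Ighm, the constant region of IgM, 97.6 ± 21.1 and 95.2 ± 24.9 (adjusted p = 0.916).

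Genes of T and NK cells were called higher in 5 of 15 tested cases (median 0.70), but in 1 without 6-month replicate 2 and in 2 without replicate 3 of either age. Cd3g, part of the T cell receptor complex, and Txk, a kinase of T cells, were among them. The receptor constant regions Trbc1 and Trbc2 and the receptor Il7r were the others, at 1.06 ± 0.30, 1.39 ± 0.39 and 1.36 ± 0.38 (adjusted p = 0.0329, 0.0307 and 0.0311). Trbc1 kept its call, with 1 library left out, only without 12-month replicate 1, 12-month replicate 2, 6-month replicate 4 or 6-month replicate 5 (highest adjusted p = 0.0717) and had a GC-corrected adjusted p of 0.0575. Trbc2 lost its call without 12-month replicate 1, 12-month replicate 5, 6-month replicate 1, 6-month replicate 2 or 6-month replicate 3 (highest adjusted p = 0.0676), Il7r kept its call, with 1 library left out, only without 12-month replicate 3, 6-month replicate 4 or 6-month replicate 5 (highest adjusted p = 0.0711), and Txk lost its call without 6-month replicate 2 (highest adjusted p = 0.0515).

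Of 21 tested macrophage markers 2 were called lower and none higher, near the 8.82% of all tested genes called lower. Adgre1, a surface receptor that marks mouse macrophages, gave 156, 151, 183, 202 and 171 normalised reads at 6 months and 88.8, 64.0, 33.0, 69.7 and 116 at 12 months. Replicate 3 was the lowest of the older ovaries, none of them reached the younger ones, and the fall was 2.47-fold (-1.31 ± 0.27, adjusted p = 0.00853). Csf1r, the receptor for the growth factor that macrophages need, fell 2.08-fold (adjusted p = 0.0167). The median over the 21 markers was -0.22, and 0.08 without replicate 3 of either age. Cd68, a lysosomal marker of the same cells, differed by -0.01 ± 0.33 (adjusted p = 0.986).

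Other immune genes gave few calls. None of 13 genes of MHC class II presentation and dendritic cells was called by limma, at a median of 0.28, and H2-Aa averaged 736 ± 346 and 1104 ± 364 (adjusted p = 0.236). Of 36 interferon-induced genes the GTPase Gbp7 was called higher (0.59 ± 0.16, adjusted p = 0.0294, GC-corrected adjusted p = 0.0697) and kept its call, with 1 library left out, only without 12-month replicate 2, 6-month replicate 3 or 6-month replicate 4 (highest adjusted p = 0.0723). The interferon genes Ifit1, Ifit2 and Ifit3 differed by 0.67, -0.12 and 0.33 (adjusted p = 0.220, 0.734 and 0.432). Of 19 cytokines and inflammatory mediators none was called, and Il1b averaged 14.3 ± 6.27 and 18.9 ± 7.02 (adjusted p = 0.466).

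Among 22 complement genes C1ra, a protease that starts the classical pathway, fell 1.78-fold from 1649.9 ± 263 to 930.2 ± 166 (adjusted p = 0.00316). The lectin pathway proteases Masp1 and Masp2 were called higher, at 0.98 ± 0.26 and 2.97 ± 0.84 (adjusted p = 0.0273 and 0.0377). Masp1 lost its call without 12-month replicate 1 or 12-month replicate 3 (highest adjusted p = 0.0602), and Masp2 kept its call, with 1 library left out, only without 6-month replicate 1 or 6-month replicate 3 (highest adjusted p = 0.0838); edgeR and DESeq2 did not call Masp2. C1qa, C1qb and C1qc, which macrophages make, differed by 0.08, -0.25 and -0.12 (adjusted p = 0.872, 0.542 and 0.811).

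Proliferation genes gave almost no calls. Of 31 mitosis genes Cenpe, a kinetochore motor, was called higher (0.62 ± 0.19, adjusted p = 0.0451, GC-corrected adjusted p = 0.205) and kept its call, with 1 library left out, only without 12-month replicate 1 or 12-month replicate 4 (highest adjusted p = 0.0950). Mki67 averaged 718 ± 177 and 1055 ± 179.7 (adjusted p = 0.0619) and Top2a 745 ± 209.5 and 829 ± 185 (adjusted p = 0.633). Of 33 DNA replication genes 30 had a negative difference and 3 a positive one, where 49.7% of all tested genes were positive. The genes were measured in the same ovaries, so they do not count as independent. Summed over the 33 genes, the level was 6756 to 10309.5 normalised reads at 12 months and 8120 to 11557 at 6 months. These ranges overlapped, and in no gene of the list did the ages lie apart. Of the list 1 was called, Uhrf1, which brings DNA methyltransferase to new DNA (-0.51 ± 0.15, adjusted p = 0.0378, GC-corrected adjusted p = 0.187). Uhrf1 kept its call, with 1 library left out, only without 12-month replicate 3, 12-month replicate 5 or 6-month replicate 4 (highest adjusted p = 0.0841). Mcm2 and Mcm3, subunits of the replicative helicase, differed by -0.49 ± 0.16 and -0.25 ± 0.16 (adjusted p = 0.0660 and 0.306).

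Of 38 tested DNA repair genes, 4 were called higher and 1 lower, and all 5 kept their calls when any 1 library was left out. Parp1, which senses DNA breaks, gave 2306, 2317, 2124, 2403 and 2468 normalised reads at 6 months and 1518, 1609.6, 1464, 1518 and 1649.9 at 12 months. Each age was narrow, the 2 ranges did not meet, and the fall was 1.50-fold (-0.58 ± 0.07, adjusted p = 0.000844). Fancc, a member of the Fanconi anaemia core complex, gave 230.3, 155, 214, 212 and 143 and 359.9, 479, 358, 413 and 442. Here every older ovary was the higher, by 2.17-fold (1.12 ± 0.15, adjusted p = 0.00115). Atr, the kinase that signals stalled replication, rose 1.63-fold (adjusted p = 0.00496), the mismatch repair gene Msh3 1.39-fold (adjusted p = 0.00700) and Rad50, of the break-binding MRN complex, 1.26-fold (adjusted p = 0.0130). Brca1 and Brca2, of homologous recombination, differed by 0.15 and 0.26 (adjusted p = 0.689 and 0.338).

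Genes of p53 and cell cycle arrest gave 5 calls among 21, 2 higher and 3 lower, and limma called none without replicate 3 of either age. The p53 target and senescence marker Cdkn1a gave 533, 669, 475, 859.7 and 297 normalised reads at 6 months and 1096, 963, 149, 1026 and 156 at 12 months. Of the older ovaries 3 were above every younger one and 2 below, and the difference was -0.15 ± 0.65 (adjusted p = 0.903). Cdkn2a, which encodes the arrest proteins p16 and p19, averaged 25.8 ± 11.0 and 34.4 ± 18.3 (adjusted p = 0.600), and Trp53 itself 1350.0 ± 83.5 and 1221 ± 159 (adjusted p = 0.281). The rises were the retinoblastoma gene Rb1 (0.39 ± 0.10, adjusted p = 0.0174, GC-corrected adjusted p = 0.0575, and 0.0687 without replicate 3 of either age) and Eda2r (0.56 ± 0.16, adjusted p = 0.0374, GC-corrected adjusted p = 0.0918). The falls were the arrest gene Cdkn1b (-0.83 ± 0.22, adjusted p = 0.0243), Sesn2 (adjusted p = 0.0278, GC-corrected adjusted p = 0.159) and the lamin Lmnb1 (adjusted p = 0.0333, GC-corrected adjusted p = 0.145). Eda2r kept its call, with 1 library left out, only without 12-month replicate 3 or 6-month replicate 1 (highest adjusted p = 0.0839), and Lmnb1 kept its call, with 1 library left out, only without 12-month replicate 2, 12-month replicate 5 or 6-month replicate 4 (highest adjusted p = 0.0794). Cdkn1b lost its call without 12-month replicate 3 or 6-month replicate 1 (highest adjusted p = 0.0544), and Sesn2 lost its call without 12-month replicate 1, 12-month replicate 3, 6-month replicate 1, 6-month replicate 3 or 6-month replicate 4 (highest adjusted p = 0.0632).

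Of 14 enzymes and readers of DNA methylation, 2 were called higher and 2 lower, the latter being Dnmt1 and Uhrf1 (above). Tet2, which oxidises methylcytosine, stood at 334, 391, 374, 353 and 349 normalised reads in the 6-month ovaries and 846, 611, 679, 842 and 837 in the 12-month ovaries. The lowest older value was above the highest younger one, and the rise was 2.10-fold (1.07 ± 0.10, adjusted p = 0.000367). Its relatives Tet1 and Tet3 differed by 0.24 ± 0.16 and 0.05 ± 0.14 (adjusted p = 0.346 and 0.839), and the de novo methyltransferases Dnmt3a and Dnmt3b by -0.09 ± 0.13 and -0.12 ± 0.15 (adjusted p = 0.670 and 0.635).

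Transcripts of the mitochondrial genome took 4.16 ± 0.292% of the reads at 12 months and 2.98 ± 0.201% at 6 months, with no overlap (exact two-sided permutation p = 0.00794). Of the 13 mitochondrially encoded protein genes, all positive, 11 were called higher at a median of 0.46, and 7 were without 6-month replicate 2 or 5. mt-Nd6, the subunit of complex I encoded on the other strand from the rest, gave 153, 134, 125, 105 and 134 normalised reads at 6 months and 278, 244, 239, 269 and 239.7 at 12 months. The ages were apart and the rise was 1.95-fold (0.96 ± 0.11, adjusted p = 0.000844, GC-corrected adjusted p = 0.0627). mt-Co1, of the terminal oxidase and the most abundant transcript, rose 1.36-fold (adjusted p = 0.0116, GC-corrected adjusted p = 0.206).

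The complex I subunits mt-Nd1, mt-Nd2 and mt-Nd3 were called at 0.44, 0.42 and 0.54 (adjusted p = 0.0435, 0.0272 and 0.0213; GC-corrected adjusted p = 0.829, 0.798 and 0.429). mt-Nd1 kept its call, with 1 library left out, only without 12-month replicate 5 (highest adjusted p = 0.0977), mt-Nd2 lost its call without 12-month replicate 1, 12-month replicate 2, 6-month replicate 2, 6-month replicate 4 or 6-month replicate 5 (highest adjusted p = 0.0661), and mt-Nd3 lost its call without 6-month replicate 2 (highest adjusted p = 0.0502). These 13 transcripts have a low GC content, with a median of 37.1%, and after the length and GC correction none was called higher, 1 was called lower and the median difference was 0.07. In the fit over all 15 libraries 2 were called higher, mt-Nd6 and mt-Co3 (adjusted p = 0.00167 and 0.0442), and the calls of the other 9 were lost.

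Nuclear genes for the same respiratory complexes were called in both directions at about the shares of all genes, 6.84% and 8.82%. Of 45 tested, 4 were called higher and 3 lower (median 0.18). The complex I subunit Ndufa1 rose 1.61-fold (adjusted p = 0.0185) and Uqcrq, of complex III, 1.43-fold (adjusted p = 0.0173, and 0.0585 in the fit over 15 libraries). Ndufa2 and Ndufa3, of complex I, were called at adjusted p = 0.0235 and 0.0365; Ndufa2 lost its call without 6-month replicate 1, 6-month replicate 4 or 6-month replicate 5 (highest adjusted p = 0.0552), and Ndufa3 kept its call, with 1 library left out, only without 12-month replicate 4, 12-month replicate 5 or 6-month replicate 3 (highest adjusted p = 0.0835). Sdha, the catalytic subunit of complex II, fell 1.36-fold from 4152 ± 232 to 3052 ± 295 (adjusted p = 0.00506, and 0.0522 in the fit over 15 libraries), Ndufs1, the largest subunit of complex I, 1.27-fold (adjusted p = 0.0204) and Atp5b, the catalytic subunit of ATP synthase, 1.31-fold (adjusted p = 0.00688). The count of genes called higher was 2 without 6-month replicate 1, 4 or 5, 7 without 12-month replicate 4, 8 without 12-month replicate 5 and 10 without 6-month replicate 3, and it was 12 after the length and GC correction, beside 4 lower.

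Of 29 genes of cholesterol synthesis and uptake, which feeds steroid making, 2 were called, both lower. Srebf1, a master factor of lipid synthesis, fell 1.38-fold (adjusted p = 0.00369, GC-corrected adjusted p = 0.0577). None of 36 antioxidant and glutathione genes was called by limma, and Sod1 and Sod2 differed by 0.10 ± 0.12 and 0.24 ± 0.15 (adjusted p = 0.611 and 0.312).

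The circadian clock is a loop in which CLOCK and BMAL1 switch on their own repressors and a layer of output factors, and most of those genes cycle over the day. The 4 output genes that turned out lower are shown with the 250 bases before their annotated starts (RefSeq, GRCm38.p6, a different build from the authors' mm39), because CLOCK and BMAL1 bind the E-box CACGTG, printed in capitals, and DBP, TEF and HLF bind the D-box TTANGTAA. RefSeq promoters were found for 16 of the 20 listed clock genes.
Nr1d1 (chr11:98775378-98775627, minus strand): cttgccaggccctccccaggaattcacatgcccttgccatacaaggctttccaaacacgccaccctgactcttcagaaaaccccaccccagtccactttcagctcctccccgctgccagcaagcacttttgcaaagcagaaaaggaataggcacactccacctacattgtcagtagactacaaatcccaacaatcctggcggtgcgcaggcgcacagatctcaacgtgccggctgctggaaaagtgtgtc
Dbp (chr7:45704997-45705246, plus strand): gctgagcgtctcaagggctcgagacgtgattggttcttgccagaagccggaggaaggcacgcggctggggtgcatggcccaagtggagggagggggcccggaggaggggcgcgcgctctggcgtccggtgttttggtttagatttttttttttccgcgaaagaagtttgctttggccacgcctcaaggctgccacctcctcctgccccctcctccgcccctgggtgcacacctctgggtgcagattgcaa
Tef (chr15:81802423-81802672, plus strand, the first of its 2 starts): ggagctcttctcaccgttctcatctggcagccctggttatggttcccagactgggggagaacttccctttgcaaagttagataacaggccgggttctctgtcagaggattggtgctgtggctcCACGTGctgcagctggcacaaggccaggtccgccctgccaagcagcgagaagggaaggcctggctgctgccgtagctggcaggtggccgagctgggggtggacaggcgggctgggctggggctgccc
Hlf (chr11:90390918-90391167, minus strand): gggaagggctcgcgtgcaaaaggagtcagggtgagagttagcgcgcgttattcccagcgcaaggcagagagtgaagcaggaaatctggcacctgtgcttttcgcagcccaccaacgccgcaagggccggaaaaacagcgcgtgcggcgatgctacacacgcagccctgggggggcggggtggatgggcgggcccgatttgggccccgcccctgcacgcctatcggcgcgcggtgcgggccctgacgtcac
On either strand, the E-box was found in Tef alone of these 4, in the windows of 5 of the 16 clock genes, and in 6.02% of 32851 RefSeq promoter windows of the same length. The D-box was in none of these 4, in 1 of the 16 (Per3) and in 2.06% of all windows.

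Of 19 tested clock genes 1 was called higher and 5 lower, at a median of -0.35, and 4 to 6 were called lower when any 1 library was left out. Nr1d1, the repressor REV-ERB alpha, gave 2310.1, 2599, 2138, 1917 and 1704 normalised reads at 6 months and 970.0, 930.4, 898, 1020.4 and 1019 at 12 months. All 5 older ovaries were close to each other and below all younger ones, and the fall was 2.18-fold (-1.13 ± 0.11, adjusted p = 0.000367). Dbp gave 3068, 5128, 3314, 2261 and 2735 and 1057, 1448, 1508, 1284 and 1361. Again the ages did not overlap, with 6-month replicate 2 the highest, and the fall was 2.40-fold (-1.26 ± 0.19, adjusted p = 0.00189).

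Hlf and Tef, relatives of Dbp, fell 1.98-fold (adjusted p = 0.0120) and 1.39-fold (adjusted p = 0.0171, GC-corrected adjusted p = 0.108). Clock itself rose 1.44-fold from 553 ± 63.2 to 798 ± 110.2 (adjusted p = 0.0107, GC-corrected adjusted p = 0.0719), and Arntl, which encodes BMAL1, averaged 103 ± 29.7 and 148 ± 22.3 (adjusted p = 0.0737). The repressor Cry2 was called lower (-0.35 ± 0.11, adjusted p = 0.0426, GC-corrected adjusted p = 0.350) and kept its call, with 1 library left out, only without 12-month replicate 1 or 6-month replicate 4 (highest adjusted p = 0.103). Per1 and Per2 differed by -0.68 ± 0.27 and -0.55 ± 0.29 (adjusted p = 0.117 and 0.212), with Per1 at 1502 to 2145 in the younger and 731 to 2197 in the older ovaries. After the length and GC correction 3 clock genes remained called lower, Nr1d1, Dbp and Hlf. Since the time of day is not given, age and time of collection cannot be told apart here.

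**Figure D5:**
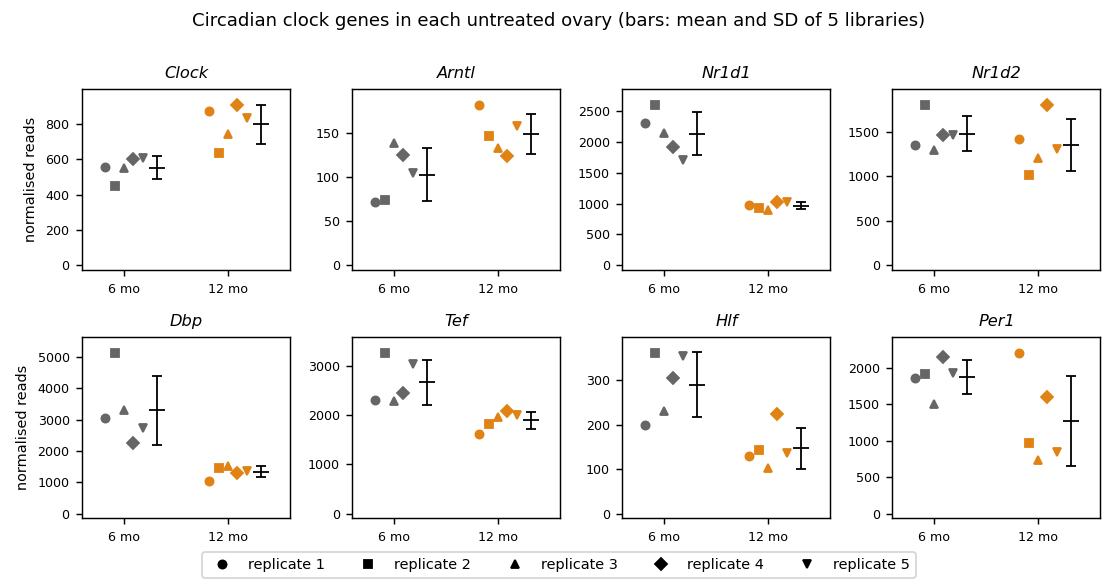
Normalised reads of 8 circadian clock genes in each untreated ovary, 6 months in grey and 12 months in orange, with 1 marker shape per replicate number and the mean and SD of 5 libraries as black bars. The 12-month values of Nr1d1 and Dbp lie below every 6-month value, Clock lies above, and Nr1d2 and Per1 overlap.

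Among the largest rises with a mean of at least 20, Rsc1a1, which encodes a regulator of sugar transporters, was at 0 in all 5 younger ovaries and at 55.4, 33.0, 34.9, 11.3 and 16.5 normalised reads in the older ones. Against a floor of 3 reads per library it was at least 10.8-fold higher (adjusted p = 0.000241). With every younger ovary at 0, Rsc1a1 could pass the filter only with all 5 older ovaries at the filter's minimum or above. The lack of overlap was therefore fixed by the filter and is no support for the rise. Rsc1a1 lies within the gene Ddi2, so its reads may be uncertain, and Ddi2 stood at 1313 ± 105 and 1573 ± 184 (adjusted p = 0.0800). Comp, a cartilage matrix protein, gave 16.1, 10.9, 8.77, 9.33 and 26.8 at 6 months and 149, 69.9, 64.3, 155 and 53.8 at 12 months. It was higher in all older ovaries, by 6.36-fold (2.67 ± 0.38, adjusted p = 0.00135).

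Further rises that kept their call with any 1 library left out were Lancl3, a lanthionine synthetase-like gene (7.09-fold, adjusted p = 0.00156), Atp12a, a proton pump subunit (4.58-fold, adjusted p = 0.0188), and Asgr1, a receptor that clears glycoproteins (4.12-fold, adjusted p = 0.00611). Zpld1, which encodes a zona pellucida-like domain protein, rose 3.91-fold (adjusted p = 0.00123) and Aff2, a nuclear gene of the X chromosome, 3.89-fold (adjusted p = 0.00145). Fabp4, a fatty acid carrier of fat cells, macrophages and vessels, ranged over 20.9 to 79.9 at 6 months and 72.9 to 362 at 12 months (adjusted p = 0.00894). Of 6 tested fat cell markers it was the only one called, and Plin1, which coats fat droplets, differed by -0.31 ± 0.34 (adjusted p = 0.576). The other 9 markers were below the filter, and 8 of them had the higher mean at 12 months, all but Ucp1. Adipoq, a hormone made by fat cells alone, stood at 0 to 2.54 normalised reads in the younger and 1.84 to 56.3 in the older ovaries, and Cfd, the protease adipsin, at 0.948 to 6.78 and 2.75 to 294. Retn, which encodes resistin, was the only one of the 9 whose ages did not overlap, at 0 to 1.95 and 3.67 to 36.9, and Cidec, Pck1, Adrb3 and Lep averaged 2.42 and 18.2, 4.31 and 17.0, 1.27 and 7.40, and 0.198 and 3.99. Summed over the 15 markers, the level was 3831 to 18245 at 6 months and 3167 to 10426 at 12 months. The part of fat cells in the rise of Fabp4 was not tested. Masp2 (above), Fer1l4 and Cd163l1 were also among the 12 largest rises. Fer1l4 (adjusted p = 0.0351) kept its call, with 1 library left out, only without 12-month replicate 1, 12-month replicate 5 or 6-month replicate 4 (highest adjusted p = 0.0848), and Cd163l1 (adjusted p = 0.0413) kept its call, with 1 library left out, only without 12-month replicate 3, 6-month replicate 2 or 6-month replicate 4 (highest adjusted p = 0.0895).

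Chrna4, a subunit of neuronal acetylcholine receptors, had one of the largest falls. It gave 258, 329, 366, 233 and 321 normalised reads at 6 months and 63.0, 65.0, 83.5, 50.2 and 91.2 at 12 months. The lowest younger ovary held more than the highest older one, and the fall was 4.26-fold (-2.09 ± 0.18, adjusted p = 0.000241). Of 9 tested neuronal genes, Syt1 was the only other call (-0.87 ± 0.23, adjusted p = 0.0240), it kept its call, with 1 library left out, only without 12-month replicate 2, 12-month replicate 3, 6-month replicate 1 or 6-month replicate 5 (highest adjusted p = 0.0639), and Uchl1 averaged 476 ± 71.2 and 690.3 ± 199 (adjusted p = 0.139).

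The other largest falls kept their calls with any 1 library left out. Atp2b3, a calcium pump of the plasma membrane, fell 3.58-fold (adjusted p = 0.00194), Gpr37, an orphan receptor, 3.43-fold (adjusted p = 0.00321) and Slit3, a secreted guidance ligand, 3.23-fold (adjusted p = 0.000955). Soga1 fell 3.51-fold from 963 ± 218 to 277 ± 76.6 (adjusted p = 0.000890), and Slc27a6, a fatty acid transporter, 3.44-fold (adjusted p = 0.0173). Tlr9, which senses foreign DNA, fell 4.41-fold at low levels, 21.7 ± 6.42 and 4.61 ± 3.11 (adjusted p = 0.00405).

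Gamma protocadherins, adhesion proteins with single variable first exons joined to shared last exons, were among the extremes in both directions. Pcdhgc3 gave 4325, 4216, 3358, 4012 and 3719.8 normalised reads at 6 months and 1453, 1215, 497, 1370.1 and 1784 at 12 months, while Pcdhgc4 gave 113, 635, 628, 143 and 215 and 1984, 2214, 2131, 1869 and 1649.9. Neither pair of ranges overlapped: Pcdhgc3 fell 3.35-fold (adjusted p = 0.00351) and Pcdhgc4 rose 7.28-fold (adjusted p = 0.00432). Of 22 tested genes of the cluster 13 were called lower, Pcdhga8, Pcdhga4 and Pcdhgb4 with the largest folds (3.97, 3.38 and 3.30), and Pcdhgc4 alone higher. Summed over the cluster the level was 4133 ± 604 at 12 months and 6286 ± 531 at 6 months. None of 19 tested Pcdhb genes was called by limma. Because the gamma genes share their last exons, how the counting assigned such reads is uncertain.

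Abundant genes gave smaller folds. The 8 most abundant genes called higher were all mitochondrially encoded: mt-Co1, mt-Cytb, mt-Nd4, mt-Co2, mt-Nd1, mt-Co3, mt-Atp6 and mt-Nd5, at differences of 0.44, 0.41, 0.49, 0.52, 0.44, 0.53, 0.56 and 0.46. None of the 8 was called higher after the length and GC correction. Only mt-Co3 of them kept its call in the fit over 15 libraries (adjusted p = 0.0442). With 1 library left out, mt-Nd5 lost its call in 8 of the fits and mt-Cytb in 1. Of the abundant genes called lower, Eef2, the translation elongation factor, stood at 47649, 43504, 45410.2, 42926 and 53166 normalised reads at 6 months and 30038, 31734, 27589, 30090.2 and 28595 at 12 months. The ages were far apart, with a fall of 1.57-fold (-0.65 ± 0.09, adjusted p = 0.00155). Lrp1, a large endocytic receptor, fell 1.92-fold (adjusted p = 0.00128), Cpe, a peptide-processing enzyme, 1.67-fold (adjusted p = 0.00202) and Serinc3, a membrane protein gene, 1.87-fold (adjusted p = 0.00450). Hsp90ab1, a chaperone, was called at -0.41 ± 0.11 (adjusted p = 0.0230, GC-corrected adjusted p = 0.0530) and lost its call without 12-month replicate 1, 6-month replicate 4 or 6-month replicate 5 (highest adjusted p = 0.0523). Col3a1 (above), Col1a2 and Atp5b (above) complete the 8.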

How the data were processed

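Poly(A) RNA of 1 ovary per mouse was sequenced (Illumina NovaSeq), per the labels' protocols. The authors used Partek 11.0 and the mm39 build, per the submitters' processing notes; no source used here gives the aligner or counting rules. The deposited values are a gene-level signal, normalised read counts: in every library at least 99.991% of values above 0 were whole multiples of 1 step (within 0.1 of a read), so reads were recovered from them. The 12- and 6-month libraries (5 each, taken as separate mice) were compared with limma 3.58.1 (R 4.3.3; trend and robust) on log2 (value + 1), for genes of at least 10 in at least 5 libraries. The count tests edgeR 4.0.16 (1230 genes higher, 1441 lower) and DESeq2 1.42.0 were run on the recovered reads as alternatives, with other scalings, pseudocounts and filters, a fit over 15 libraries and the omission of each library. Shares per mouse were tested by exact two-sided permutation over 252 arrangements. The scripts were tested on simulated data.

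Genes named are the 12 largest called rises and falls with a mean of at least 20, the 8 most abundant calls each way, and of each list its first 3 tested members, those of smallest p and any counted singly; a few untested or further members were chosen after their values were seen. Some genes that these rules name are not reported here. Members and lists were chosen with earlier results of these data known. Transcript GC content and length came from GENCODE M21 (GRCm38), with genes matched by identifier.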

Additional observations from a re-analysis of the deposited data

Results flagged for a closer look

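In 31 of 456 sets of 5 libraries, from the 228 genes named and tested, the highest or lowest library stood so far from the nearest other that its gap filled most of the set's range. Chance alone gives about 1 in 20 such sets. The value given first is that of the outlying library and the second is the nearest other of its age. 12-month replicate 1 was the highest of its age in Greb1 (11518 against 8921). 12-month replicate 2 was the highest of its age in Cyp17a1 (7729 against 2942), Fshr (543 against 352), Syt1 (102 against 63.3) and Trp53 (1493 against 1199.8). 12-month replicate 2 was the lowest of its age in Col22a1 (18.4 against 23.6) and Insr (1279 against 1553). 12-month replicate 3 was the highest of its age in Fer1l4 (123 against 29.7), Igf2 (420.4 against 166), Ndufa1 (941 against 637) and Ndufa2 (1299 against 955). 12-month replicate 3 was the lowest of its age in Emilin1 (953 against 2009) and Por (1173 against 1539.6). 12-month replicate 4 was the lowest of its age in Atp5b (8967 against 9337). 12-month replicate 5 was the highest of its age in Ighm (138 against 89.7), Ovgp1 (211 against 71.8) and Trbc2 (42.5 against 19.1). 6-month replicate 2 was the highest of its age in Adamts2 (2605 against 2384) and Col1a2 (17998 against 15568). 6-month replicate 3 was the highest of its age in Igf2r (2149.6 against 1874), Lox (361 against 223), Tgfbr3 (1375 against 1175) and Wnt4 (8191 against 3602). 6-month replicate 3 was the lowest of its age in Gja1 (9011 against 12825) and Thbs1 (3328 against 4948). 6-month replicate 4 was the highest of its age in Asgr1 (26.3 against 13.6). 6-month replicate 4 was the lowest of its age in Inhbb (1956 against 8392), Lmnb1 (672 against 1009), Masp1 (173 against 387) and Mcm3 (471 against 661). 6-month replicate 5 was the highest of its age in Pappa (152 against 70.1). Replicates 2 and 3 of 12 months and replicate 3 of 6 months stood out 6 times each. Calls that were lost without 1 of these libraries are given with the gene in the results, for mt-Nd5 and mt-Cytb only as a count of fits.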

How the results depend on the processing

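Over 15 other settings of test, scaling, pseudocount, filter, variance model and libraries, including one with replicate 3 of both ages left out, 846 to 1703 genes were called higher and 1046 to 1841 lower, the most by DESeq2. Leaving out 1 library gave 755 to 1135 higher and 1060 to 1443 lower. The difference between the ages in within-group distance ran from 0.0184 to 0.0786 log2 units when 1 library was left out. Its exact two-sided permutation p was 0.0397 without 12-month replicate 1 (difference 0.0786) or 4 (difference 0.0765). There the 12-month distances were taken from a mean of fewer libraries, and the cause was not tested. When 1 library was left out, the mitochondrial share differed by 1.11 to 1.30 percentage points and the immunoglobulin share by 0.00555 to 0.00763. After the length and GC correction the differences of mt-Nd2 (-0.0535) and mt-Nd3 (-0.107) reversed; the cause was not tested. Labels number the replicates of both ages, and the mice were not treated as pairs. Of the same-number pairs, 1 of 5 correlated above 0.1 (r = -0.0619 to 0.263), and 1 of 5 older libraries correlated best with its own number. These correlations cannot show whether the numbers mark a shared batch. With a replicate block 1226 genes were called higher and 1418 lower. Of the 152 named genes called, 78 kept their call in every setting, 41 lost it without replicate 3 of either age, 29 in the fit over 15 libraries and 5 with edgeR (Adamts2, Cd163l1, Masp2, Pappa and Uhrf1); for the rest the cause was not tested. Genes near 10 normalised reads, such as Cd3g and Ighg2b, rest on few reads.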
